A study of Mus musculus with 6 samples.

Results

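The Th17 genes described here encode products of Th17 cells or receptors and transcription factors that such cells use: the cytokines Il17a, Il17f and Il22, the receptors Il23r, Il1r1 and Il17re, the homing receptor Ccr6 and the transcription factors Rora and Ahr. They were measured in libraries of sorted T follicular helper (Tfh) cells. The 9 genes, of the 14744 in the table, were chosen from their values in these same libraries. That choice used the contrast of wild-type (WT) cells with cells labelled as lacking Bach2 in T cells (Bach2-cKO). The values of the 9 genes are therefore given as a description with no test, and no statement rests on their direction.

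Tfh cells give help to germinal center B cells, and the series holds 6 libraries of them, sorted as CD4+B220-CD44+PD-1+CXCR5+ cells from mesenteric lymph nodes (MLNs). The genotype was given as WT for 3 libraries and as Bach2 fl/fl Cd4-cre for 3, and the comparison is between these labels. The mice were on a C57BL/6J background and aged 2 to 3 months, and each sample held 10000 to 30000 sorted cells. The study uses mice that carry Cd4-cre as its WT controls, so that both groups share the Cre where this holds for the sequenced mice. Cd4-cre acts in every T cell that passes through the CD4-positive stage of the thymus, regulatory and CD8 T cells included, so the deletion is not limited to Tfh cells. How many mice contributed to a library is not given in the sources used here, and p-values then measure only the spread between these libraries.

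Th17 cells are CD4+ T cells that differentiate under TGF-β and IL-6, are maintained by IL-23 and IL-1β, and use the nuclear receptor RORα among their transcription factors. They secrete IL-17A, IL-17F and IL-22, which act on epithelia and stromal cells to recruit neutrophils and guard the mucosal barrier of the gut that MLNs drain. Gamma delta T cells and group 3 innate lymphoid cells make the same cytokines, while the transcription factor BCL6 directs the Tfh program.

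Values are normalized read counts, in which the authors divided the reads on each gene by a size factor of the library. Depth was recovered for 5 libraries from the step between values, with 100% of the values within 0.01 of a whole step. It came to 6585742 and 7823717 reads in WT replicates 2 and 3, and to 5045131, 10987752 and 7197242 reads in replicates 1, 2 and 3 labelled Bach2-cKO. WT replicate 1 had a step of 1.01 and would hold 7737531 reads if a step were 1 read. This library also stood apart in the number of genes above 0, which was 11648 against 13111 to 13567 in the other libraries. Log2 differences of single genes are therefore given with and without it.

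The deleted gene was counted as a whole, and such a count does not check the labels. Bach2, on chromosome 4, had normalized read counts of 233, 222 and 105 in the WT libraries and 399, 763 and 591 in the libraries labelled Bach2-cKO. All 3 libraries labelled Bach2-cKO were thus above all 3 WT libraries, with a log2 difference of 1.68 ± 0.37 (SE) and a limma adjusted p of 0.141, and of 1.88 without WT replicate 1. Reads were counted per gene and include reads on exons outside the deleted ones, which were not separated here. The loss of the deleted exons was therefore not checked, and the higher count decides neither for nor against the labels. Each direction below is drawn on labels that were not checked, and the group is named by its label throughout.

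The libraries held the transcripts that define the sorted cells. Normalized read counts of Cd4 (mean ± SD, n = 3) were 2566 ± 201 in WT and 3607 ± 454 in the group labelled Bach2-cKO, with Cd3e at 10732 ± 1142 and 5304 ± 805, and Trac at 17941 ± 2981 and 11231 ± 3866. Cxcr5, the receptor that takes Tfh cells into follicles, was at 1699 ± 307 and 1835 ± 497, Pdcd1, the gene of PD-1, at 2235 ± 576 and 1849 ± 355, and Bcl6 at 426 ± 80.0 and 716 ± 155. No T cell or Tfh marker on the lists was at 0 in any library. At an unadjusted limma p under 0.05, which 10.2% of the 11296 genes tested passed with a lower mean and 10.1% with a higher one, 3 of 8 T cell markers were lower (Cd3e, Trac and Cd28) and 1 higher (Cd4), and of 9 Tfh markers 1 was lower (Icos) and 2 were higher (Bcl6 and Tox2). In bulk RNA, fewer cells that express a gene and less of its RNA per cell cannot be told apart, and this holds for every value below.

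Il17f and Il17a encode the secreted subunits of the IL-17 cytokines and lie next to each other on chromosome 1 of GRCm38, Il17a at chr1:20730905-20734496 on the plus strand and Il17f at chr1:20777146-20790617 on the minus strand, with a gap of 42.7 kb. Il17f had normalized read counts of 645, 183 and 64.5 in WT replicates 1, 2 and 3, and of 13.3, 4.02 and 5.11 in the replicates labelled Bach2-cKO. Every WT library was above every library labelled Bach2-cKO, and the WT libraries themselves spanned a 10-fold range. The means were 297 ± 307 (SD, n = 3) and 7.48 ± 5.07 (SD, n = 3), a 39.8-fold ratio of means, in which WT replicate 1 gave 72.3% of the WT sum. On the log2(value + 1) scale, which understates differences of low genes, the difference was -4.70, and -3.85 without WT replicate 1, when the WT mean was 124. The low group rests on few reads, 9, 6 and 5 in its 3 libraries.

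Il17a, its neighbor, did not follow this pattern. Its normalized read counts were 0, 70.7 and 1.04 in WT and 5.91, 0 and 22.5 in the libraries labelled Bach2-cKO. WT replicate 2 held 98.5% of the WT sum, and the groups overlapped. The library with the highest Il17f count, WT replicate 1, was among those where Il17a was listed at 0, where 3 reads would have given 3.03 normalized read counts if a step were 1 read. The difference of the log2 values was 0.05, with a mean ratio of the opposite direction, 23.9 against 9.47. It was -1.15 without WT replicate 1 and 1.93 without WT replicate 2, and Il17a was below the filter on low values. Per kilobase of annotated exon, the Il17f level was 1.50 times that of Il17a in WT replicate 2, from 163 and 63 reads, and 0.132 times in replicate 3 labelled Bach2-cKO, from 5 and 22 reads. The other 4 libraries held at most 4 reads of Il17a, and no ratio is given for them.

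The genes beside this pair were named for their position alone. Mcm3, a replication gene 12.4 kb beyond Il17f, was at 1059, 519 and 479 normalized read counts in WT and at 900, 793 and 1103 in the libraries labelled Bach2-cKO, with overlap, and Pkhd1, on the far side of Il17a, was at 0 in all 6 libraries.

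Promoters are shown for the 4 genes that held the hexamer AGGTCA on either strand, the core of the site that RORα binds. The search covered the 10 promoter entries of RefSeq (GRCm38.p6) that matched 8 of the 9 genes; for Ahr no promoter was used here. Each runs from 250 bases before to 50 bases after the start site, 5′ to 3′ on the strand of the gene, and capitals mark AGGTCA or its reverse complement and, in Ccr6 alone, TTCNNNGAA, the spaced palindrome bound by STAT factors.
Il17a, chr1:20730655-20730954, plus strand: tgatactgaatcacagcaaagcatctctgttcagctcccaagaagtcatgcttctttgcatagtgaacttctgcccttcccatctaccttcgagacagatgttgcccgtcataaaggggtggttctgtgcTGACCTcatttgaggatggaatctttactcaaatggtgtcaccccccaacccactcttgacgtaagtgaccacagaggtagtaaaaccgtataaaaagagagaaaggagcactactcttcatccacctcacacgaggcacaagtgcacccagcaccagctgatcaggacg
Il17f, chr1:20784221-20784520, minus strand: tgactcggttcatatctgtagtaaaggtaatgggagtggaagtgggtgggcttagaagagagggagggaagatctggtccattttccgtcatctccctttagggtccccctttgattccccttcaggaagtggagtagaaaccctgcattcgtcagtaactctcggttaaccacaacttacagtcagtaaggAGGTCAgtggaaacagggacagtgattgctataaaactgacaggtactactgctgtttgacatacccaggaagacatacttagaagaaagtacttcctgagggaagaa
Il23r, chr6:67491806-67492105, minus strand: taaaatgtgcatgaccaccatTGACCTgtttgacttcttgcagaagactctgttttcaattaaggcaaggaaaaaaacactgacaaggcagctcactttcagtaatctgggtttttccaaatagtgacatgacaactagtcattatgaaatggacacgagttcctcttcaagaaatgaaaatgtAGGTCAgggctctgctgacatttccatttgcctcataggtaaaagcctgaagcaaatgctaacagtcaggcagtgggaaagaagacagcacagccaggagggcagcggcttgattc
Ccr6, chr17:8235793-8236092, plus strand: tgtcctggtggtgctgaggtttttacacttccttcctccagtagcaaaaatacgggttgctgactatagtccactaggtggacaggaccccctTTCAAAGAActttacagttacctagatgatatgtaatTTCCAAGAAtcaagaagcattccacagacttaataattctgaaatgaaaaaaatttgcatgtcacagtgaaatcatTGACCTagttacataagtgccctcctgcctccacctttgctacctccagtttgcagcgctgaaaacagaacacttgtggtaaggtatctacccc
The hexamer starts 120 bases before the start site in Il17a, 58 before in Il17f, 229 and 66 before in Il23r and 44 before in Ccr6. Of all 32851 promoter entries of this length, 16.3% held AGGTCA. TTCNNNGAA was in 1 of the 10 entries and in 8.30% of all promoters. TGACTCA, the AP-1 site that forms the core of the longer element bound by Bach2 with small Maf proteins, was in 0 of the 10 entries and in 5.20% of all promoters. GCGTG, the core bound by AHR with ARNT, was in 3 entries, those of Il1r1 and Rora, and in 32.4% of all promoters. A match is a stretch of letters in this window and shows neither binding nor its absence.

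Il22, at chr10:118204942-118210047, encodes a cytokine of the IL-10 family that acts on epithelial cells. It was at 0, 11.2 and 91.5 normalized read counts in WT and at 10.3, 7.37 and 8.18 in the libraries labelled Bach2-cKO. WT replicate 3 held 89.1% of the WT sum, while WT replicate 1 was listed at 0. The group labelled Bach2-cKO lay within a 1.40-fold range, from 7, 11 and 8 reads. The log2 difference was -0.12 with 6 libraries, -1.82 without WT replicate 1 and 1.45 without WT replicate 3, so that a single WT library decided its sign and size. A near-identical copy of this gene, Iltifb, lies 79.6 kb away. How the counting treated reads that match both genes is not given in the sources used here, and either gene may be undercounted. Iltifb was at 31.3, 6.73 and 25.0 in WT and at 11.8, 0 and 6.14 in the libraries labelled Bach2-cKO.

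**Figure D1:**
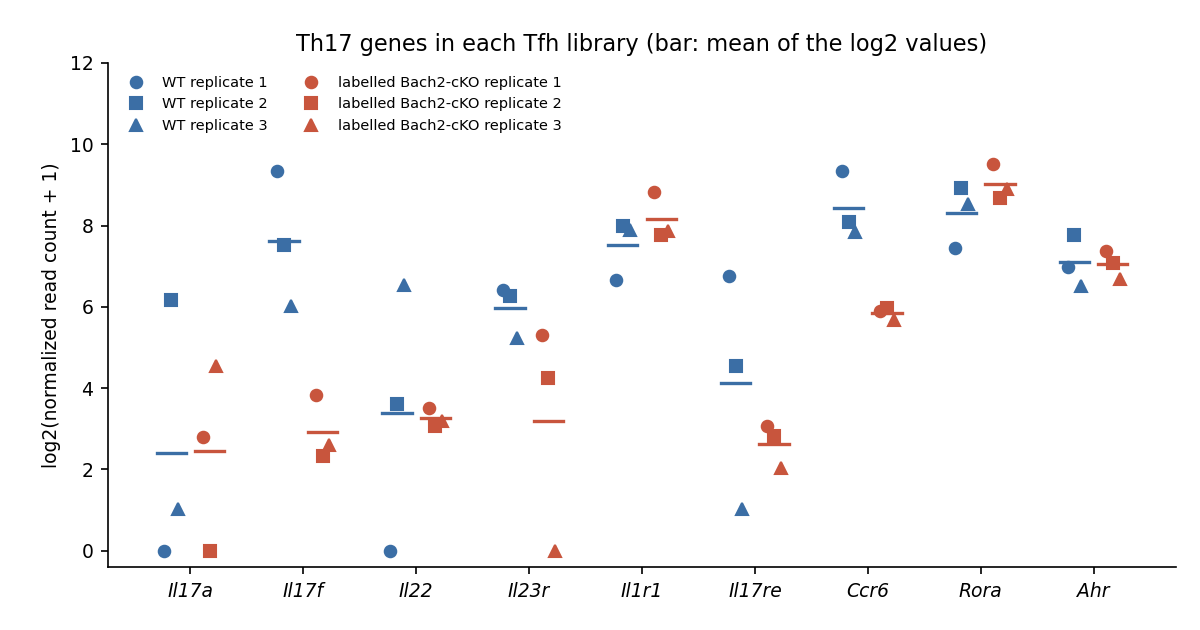
Each point is a library, plotted as log2(normalized read count + 1) for the 9 Th17 genes, with WT in blue and the libraries labelled Bach2-cKO in red, and each bar is the mean of the log2 values of a group (n = 3). Il17f and Ccr6 are the genes without overlap between groups, with Ccr6 at 227 to 645 normalized read counts in WT and at 50.1 to 62.3 in the other group.

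Among the receptors, Il23r, at chr6:67422932-67491855, encodes the chain specific to the IL-23 receptor, through which IL-23 keeps Th17 cells in their program. Its normalized read counts were 83.8, 76.3 and 36.4 in WT and 38.4, 18.1 and 0 in the libraries labelled Bach2-cKO. In 8 of the 9 pairs of libraries across groups the WT library was higher, and the exception was WT replicate 3 against replicate 1 labelled Bach2-cKO. The means were 65.5 ± 25.5 (SD, n = 3) and 18.8 ± 19.2 (SD, n = 3). The log2 difference of -2.78 owed much to the library at 0, where 3 reads would have given 3.07 normalized read counts, and was -1.19 without that library, -2.56 without WT replicate 1 and -3.84 without replicate 1 labelled Bach2-cKO.

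Il1r1, at chr1:40225080-40317257, encodes the signaling receptor for IL-1. It was at 99.9, 251 and 237 normalized read counts in WT and at 452, 217 and 231 in the libraries labelled Bach2-cKO. The highest library was replicate 1 labelled Bach2-cKO and the lowest WT replicate 1, while the other 4 libraries lay between 217 and 251. The log2 difference was 0.64, and 0.21 without WT replicate 1.

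Il17re, at chr6:113458484-113470758, encodes the receptor chain for IL-17C, a cytokine of epithelial cells. It was at 108, 22.4 and 1.04 normalized read counts in WT, a 104-fold range, and at 7.39, 6.03 and 3.07 in the libraries labelled Bach2-cKO. WT replicate 1 held 82.1% of the WT sum, and WT replicate 3 was below all libraries of the other group. The log2 difference was -1.48, -0.15 without WT replicate 1 and -3.02 without WT replicate 3. Il17re reached 10 in 2 libraries and was not tested.

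Ccr6, at chr17:8236043-8257141, encodes the receptor for the chemokine CCL20, which draws Th17 cells and B cells to mucosal follicles. Its normalized read counts were 645, 273 and 227 in WT and 59.1, 62.3 and 50.1 in the libraries labelled Bach2-cKO. The groups did not overlap. The means were 381 ± 229 (SD, n = 3) and 57.2 ± 6.32 (SD, n = 3), a 6.67-fold ratio, and the WT mean without replicate 1 was 250. The log2 difference was -2.56 with 6 libraries and -2.11 without WT replicate 1. In WT replicate 1 Ccr6 and Il17f had the same value, 639 steps each. Mpc1, the nearest measured gene beyond Ccr6 at 25.8 kb, was at 279, 239 and 246 normalized read counts in WT and at 108, 157 and 187 in the libraries labelled Bach2-cKO, also without overlap, and Fgfr1op on the other side overlapped between groups.

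Rora, at chr9:68653786-69388246, encodes RORα, and its exons overlap an antisense gene, Gm15511, whose reads cannot be told apart from its own unless strand was kept. It was at 173, 487 and 370 normalized read counts in WT and at 735, 406 and 477 in the libraries labelled Bach2-cKO. The means were 343 ± 159 (SD, n = 3) and 539 ± 173 (SD, n = 3), and the groups overlapped. The log2 difference was 0.73, and 0.30 without WT replicate 1, the lowest library.

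Ahr, at chr12:35497974-35535038, encodes the aryl hydrocarbon receptor, a sensor of dietary and microbial ligands on which IL-22 production depends, and its exons overlap the noncoding gene Gm48236. It was at 126, 218 and 90.5 normalized read counts in WT and at 164, 135 and 102 in the libraries labelled Bach2-cKO. The range of the libraries labelled Bach2-cKO lay within that of WT, with means of 145 ± 65.6 (SD, n = 3) and 134 ± 30.9 (SD, n = 3) and a log2 difference of -0.04 that was -0.09 without WT replicate 1 and turned to 0.30 without WT replicate 2 and to 0.14 without replicate 3 labelled Bach2-cKO.

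Across the 9 genes, 7 had a lower and 2 a higher mean in the libraries labelled Bach2-cKO, while 6 had lower and 3 higher mean log2 values. Of the 9, 7 passed the filter on low values, 10 or more in 3 or more libraries, and 2, Il17a and Il17re, did not. Of these 7, 2 were lower without overlap of the groups, Il17f and Ccr6, and 0 were higher without overlap, where 12.2% and 14.6% of the 11296 genes tested were. The genes were chosen from this contrast, so nothing is read from that count. The median log2 difference of the 7 genes was -0.12, that of Il22, against 0.08 over all genes tested. Leaving out 1 library at a time gave medians between -1.82, without WT replicate 1, and -0.0641, without replicate 2 labelled Bach2-cKO. Il22 passed the filter at each end of this range. Without WT replicate 2, WT replicate 3 or replicate 1 labelled Bach2-cKO it did not pass, and the medians were -1.17, -1.60 and -1.40. A gene that passes the filter through the group where it is high had to differ, which applies to Il17f, at or above 10 in 4 libraries.

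**Figure D2:**
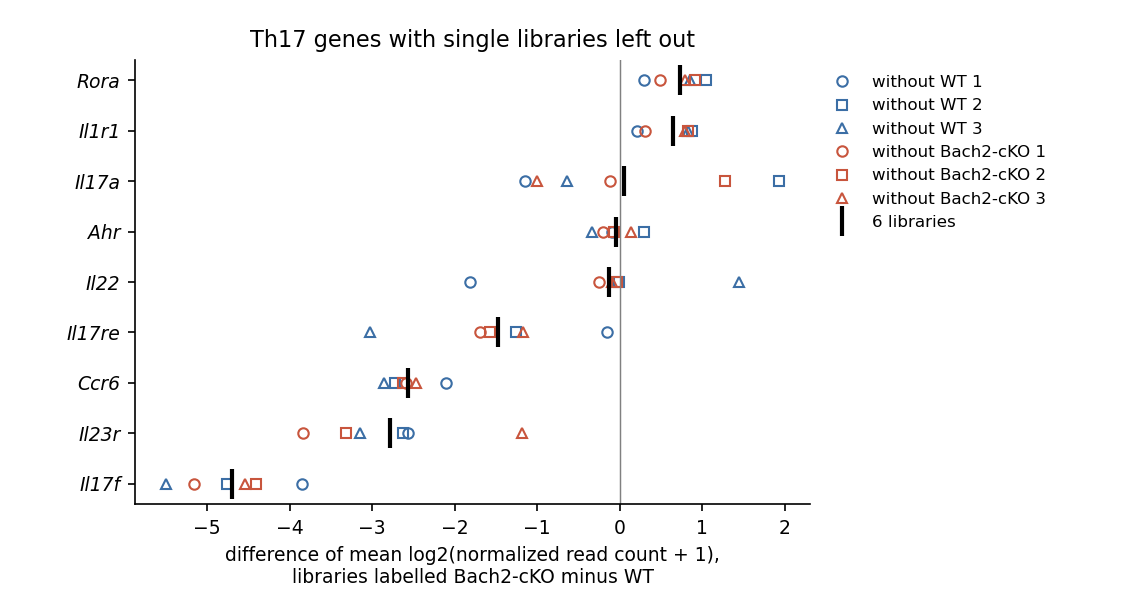
The horizontal axis is the difference of mean log2(normalized read count + 1), libraries labelled Bach2-cKO minus WT, for the 9 Th17 genes with 6 libraries (black bars) and with each library left out in turn (open symbols). Il17f stays between -5.50 and -3.85 and Ccr6 between -2.86 and -2.11, whereas Il17a runs from -1.15 to 1.93 and Il22 from -1.82 to 1.45. The groups do not overlap for Il17f and Ccr6, so leaving out a library could not change their sign.

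The spread of the WT libraries differed between the genes. Each of 3 genes, Il17a, Il22 and Il17re, had over 80% of its WT sum in 1 library, and that library was a different one for each gene. Il17a and Il17re did not pass the filter, and their shares rest on few reads in the other WT libraries. Rora, Il1r1 and Il23r were spread more evenly, with 47.3%, 42.7% and 42.6% in the highest WT library, where the median over all genes tested was 42.6%. A share of over 80% was held by 1.88% of all genes tested, a set to which Il22 alone of the 3 genes belongs, and nothing is read from this since the genes were chosen. WT replicate 1 was the highest WT library for 4 genes, Il17f, Ccr6, Il17re and Il23r, WT replicate 2 for Il17a, Il1r1, Rora and Ahr, and WT replicate 3 for Il22, where the respective shares of all genes tested were 38.3%, 30.7% and 31.0%.

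**Figure D3:**
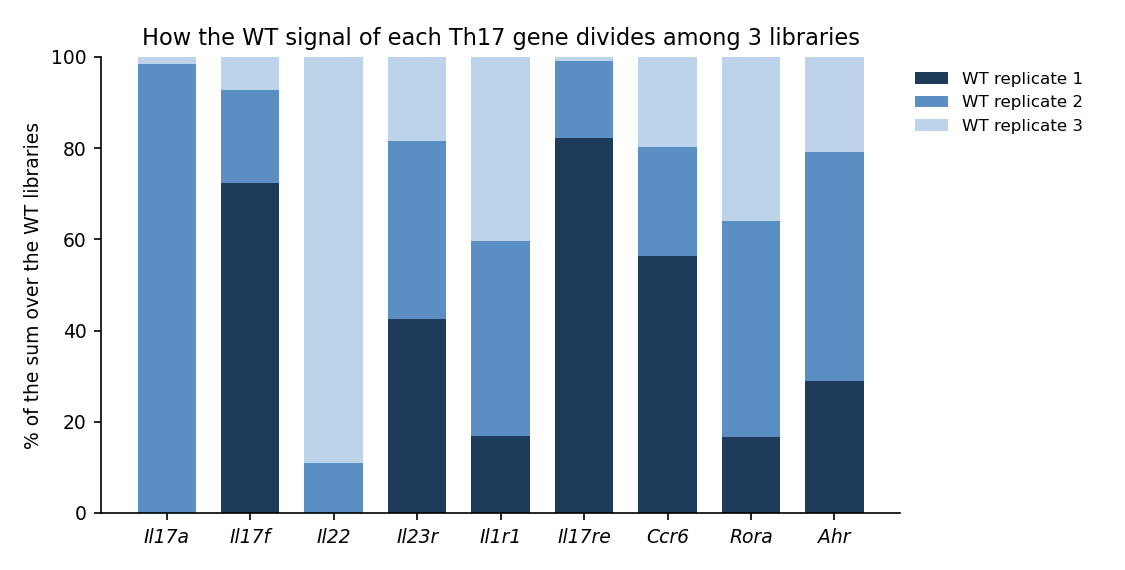
Bars show the percent of each gene's summed normalized read count over the WT libraries that came from WT replicates 1, 2 and 3. Il17a came almost wholly from replicate 2 (98.5%), Il22 from replicate 3 (89.1%) and Il17re from replicate 1 (82.1%).

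The SD of the log2 values over the WT libraries was 3.30 for Il17a and 2.89 for Il17re, the genes below the filter. Among the 7 genes above it the WT SD was 3.27 for Il22 and 1.65 for Il17f, where the median over all genes tested was 0.42 and 89.9% of them had a smaller WT SD than Il17f. The other 5 genes had a WT SD from 0.63 (Ahr) to 0.80 (Ccr6), above that of 67.4% to 75.7% of the genes tested. In 6 of these 7 genes the WT SD was larger than the SD of the libraries labelled Bach2-cKO, with Il23r the exception, and the same was true of 58.2% of all genes tested. The genes were chosen with these values known, so nothing is read from their place among all genes. Ccr6 and Il22 were nearly constant in the libraries labelled Bach2-cKO, with SDs of 0.16 and 0.22. Il22 rested on 7, 11 and 8 reads there, so its small SD is not read as a trait of that group. Low counts add to such SDs, and the part of counting error in them was not tested.

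**Figure D4:**
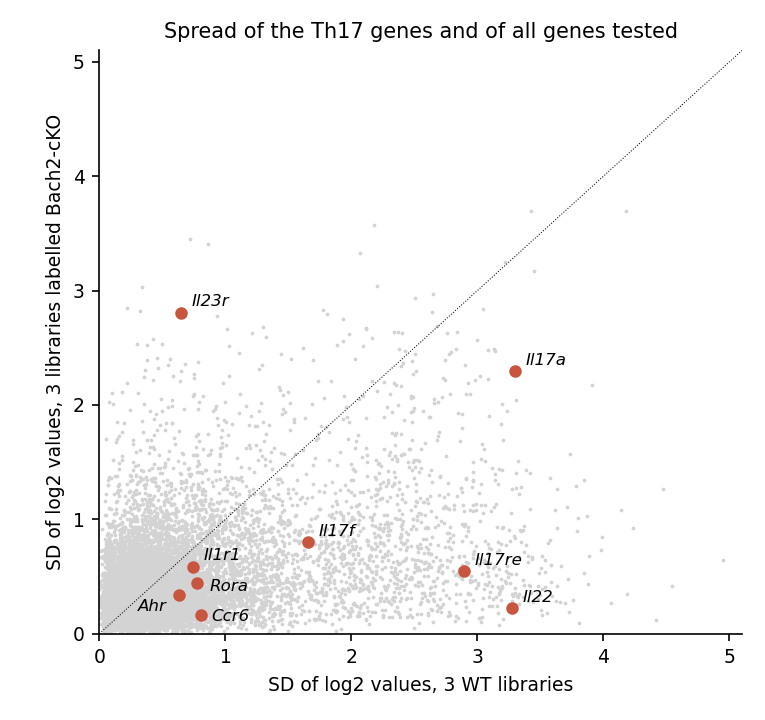
Each point is a gene, with the SD of its log2(normalized read count + 1) over the 3 WT libraries on the horizontal axis and over the 3 libraries labelled Bach2-cKO on the vertical axis. The 9 Th17 genes (red) lie to the right of the diagonal except Il23r, and Il17a, Il22 and Il17re lie beyond 2.8 in WT. The other points (grey) are the genes tested, to which Il17a and Il17re do not belong.

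Levels of different genes were compared per kilobase of annotated exon. In WT the mean level was highest for Ccr6, at 164 normalized read counts per kilobase, followed by Il17f at 147. These neighbors in the order did not differ beyond their spread, with Ccr6 at 97.7 to 278 and Il17f at 31.9 to 319 per kilobase. Il22, Il1r1, Il23r, Rora, Ahr and Il17a came next, from 30.8 down to 20.4, and differed less between genes than between libraries, and Il17re was lowest at 7.47. In the libraries labelled Bach2-cKO the order of mean levels per kilobase was led by Il1r1 at 47.2 and Rora at 41.2, while Ccr6 was at 24.6 and Il17f at 3.70. For scale, Il21, the cytokine that marks Tfh cells, was at 294 and 210 normalized read counts per kilobase in the respective groups.

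The other genes of the Th17 pathway were taken from a list by role, of which 45 in the table were used and 38 were tested. With limma over all 11296 genes, 0 of the 38 passed an adjusted p of 0.01 with a change of over 2-fold, and neither did any gene, 0% in each direction. The smallest adjusted p was 0.141, edgeR on the reads of 5 libraries also called 0 genes, and DESeq2 on the same reads called 57 lower and 33 higher. Of the list DESeq2 called 3 genes, all higher, Il17rb (DESeq2 adjusted p = 0.00127), Gfi1 (0.00176) and Il12rb1 (0.00334), for which edgeR on the same reads gave adjusted p-values of 0.148. With library weights limma called 4 of the list lower (Batf, Ccl20, Il1r2 and Nqo1) and 6 higher (Fosl2, Gfi1, Il12rb1, Il17ra, Il17rb and Il6ra), beside 567 genes lower and 561 higher in all. At an unadjusted p under 0.05, 4 of the 38 were lower (Batf, Il10, Ccl20 and Tnf) and 10 higher, where 1157 (10.2%) and 1144 (10.1%) of all genes tested were, 2301 in all. These shares are 10.5% and 26.3% of the list, and its median log2 difference was 0.46, against 0.08 over all genes. The list was chosen with earlier results of these data known, so nothing is read from its place against all genes. Single libraries moved these counts: 2 genes were lower without WT replicate 3 and 1 without replicate 2 labelled Bach2-cKO, and 5 were higher without replicate 1 and 5 without replicate 2 labelled Bach2-cKO. The counts over all genes tested moved too, to 782 lower without WT replicate 3, to 463 higher without replicate 1 labelled Bach2-cKO, and to 668 lower and 532 higher without its replicate 2. In each role the gene with the highest normalized read count, averaged over the 6 libraries and not corrected for length, is also given.

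Among the cytokines and the chemokine on the list, 3 of 4 tested genes were lower at that unadjusted level and 0 higher. Of these Ccl20 reached 10 in 4 libraries and so passed the filter through WT, and the limit given for Il17f applies to it. Ccl20, the ligand of the receptor that Ccr6 encodes, was at 397, 233 and 67.6 normalized read counts in WT and at 53.2, 1.34 and 1.02 in the libraries labelled Bach2-cKO. The groups did not overlap, and the log2 difference was -4.87 ± 1.21 (standard error, limma adjusted p = 0.141), and it was -4.32 without WT replicate 1, -6.41 without replicate 1 labelled Bach2-cKO and -3.08 in DESeq2 on 5 libraries (DESeq2 adjusted p = 0.387). WT replicate 1 was again the highest, and replicate 1 labelled Bach2-cKO stood above the other libraries of its group. Il10, an anti-inflammatory cytokine, was at 262, 61.7 and 155 in WT and at 59.1, 54.3 and 43.0 in the libraries labelled Bach2-cKO, a log2 difference of -1.38 ± 0.55 (limma adjusted p = 0.204) that was -0.91 without WT replicate 1, with a narrow gap between WT replicate 2 and the other group. Il21 had the highest count of the cytokines on the list, at 1547 ± 444 (SD, n = 3) and 1104 ± 275 (SD, n = 3), with overlap, and Csf2, the gene of GM-CSF, stayed under 6 in each library.

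Among the cytokine receptors on the list, 3 of 9 were higher at an unadjusted p under 0.05 (Il6st, Il12rb1 and Tgfbr2) and 0 lower. Il12rb1, the chain that the IL-12 and IL-23 receptors share and the partner of Il23r, was at 52.5, 38.1 and 20.8 normalized read counts in WT and at 137, 175 and 100.2 in the libraries labelled Bach2-cKO. All 3 of the latter were above all WT libraries, with a log2 difference of 1.92 ± 0.50 (limma adjusted p = 0.141), and of 2.21 without WT replicate 1. Tgfbr2, the receptor with the highest count over the 6 libraries, was at 615 ± 154 (SD, n = 3) and 1228 ± 293 (SD, n = 3), without overlap (95% confidence interval of the log2 difference 0.41 to 1.59, limma adjusted p = 0.141) and with a log2 difference of 0.78 without WT replicate 1. Per kilobase of exon Il1r2 was above it, at 407 and 323 normalized read counts in the respective groups against 75.2 and 150.0 for Tgfbr2.

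Of the IL-17 receptor chains, 2 of 4 were tested, and both were higher at an unadjusted p under 0.05. Il17rb, which encodes the chain that binds IL-25, was at 32.3, 33.7 and 18.7 normalized read counts in WT and at 85.7, 231 and 145 in the libraries labelled Bach2-cKO, a log2 difference of 2.34 ± 0.53 (limma adjusted p = 0.141) without overlap, and of 2.46 without WT replicate 1. Il17ra, the chain common to the family, was at 260 ± 105 (SD, n = 3) and 556 ± 218 (SD, n = 3), with overlap (log2 difference 1.10, limma adjusted p = 0.179, and 0.75 without WT replicate 1). Il17rc, which pairs with Il17ra to bind IL-17A and IL-17F, was under 6 in each library, and Il17rd was above 0 in 1 library.

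Of the transcription factors, 1 of 9 was lower (Batf) and 1 higher (Nfkbiz) at that level. Batf, an AP-1 factor needed for both Th17 and Tfh cells, was at 2201, 2183 and 3410 normalized read counts in WT and at 1528, 1316 and 2037 in the libraries labelled Bach2-cKO (log2 difference -0.67, limma adjusted p = 0.185, and -0.77 without WT replicate 1). Hif1a, a sensor of low oxygen, had the highest counts of these genes, at 4462 ± 563 (SD, n = 3) and 5709 ± 1075 (SD, n = 3), with overlap, while per kilobase of exon Batf was higher, at 1848 and 1157 against 757 and 968 for Hif1a. Among genes of homing and the cell surface, 1 of 5 was higher (Abcb1a), and the gene with the highest count, the chemokine receptor gene Cxcr6, was at 1192 ± 272 (SD, n = 3) and 856 ± 259 (SD, n = 3).

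Of the regulators of the pathway, 2 of 6 were higher (Ets1 and Gfi1) and 0 lower. Ets1, which restrains Th17 differentiation, was at 1833, 3283 and 2688 normalized read counts in WT and at 4323, 4352 and 4347 in the libraries labelled Bach2-cKO, without overlap (log2 difference 0.78, limma adjusted p = 0.149, and 0.55 without WT replicate 1). Gfi1, a repressor that also opposes Th17 differentiation, was at 245, 92.0 and 58.2 in WT and at 344, 322 and 177 in the other group, where WT replicate 1 exceeded replicate 3 labelled Bach2-cKO (log2 difference 1.29, limma adjusted p = 0.204, 1.87 without WT replicate 1 and 0.84 without WT replicate 3).

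Among the partner and targets of AHR, 1 of 3 tested genes was higher, Tiparp, a target that feeds back on the receptor. It was at 18.2, 151 and 128 normalized read counts in WT and at 234, 189 and 245 in the libraries labelled Bach2-cKO, a log2 difference of 1.62 (limma adjusted p = 0.226) that was 0.67 without WT replicate 1. Cyp1a1, the target gene most used as a readout of the receptor, was singled out after its values were seen. It was listed at 0 in all WT libraries and at 14.8, 33.5 and 3.07 in the libraries labelled Bach2-cKO, from 10, 50 and 3 reads. Against a floor of 3 reads in a WT library, at most 3.37 normalized read counts, its mean of 17.1 was at least 5.09-fold higher, and it was not tested. Replicate 2 labelled Bach2-cKO carried this mean, which was 8.92 and at least 2.65-fold higher without it, and replicate 3 lay below the floor itself. Arnt, the partner of AHR and the gene with the highest count of this group, was at 182 ± 34.2 (SD, n = 3) and 249 ± 15.5 (SD, n = 3), and per kilobase of exon at 22.8 and 31.1, where Tiparp was at 22.8 and 51.1. Nqo1, a further target, was at 30.3, 25.8 and 42.6 in WT and at 7.39, 5.36 and 25.6 in the other group, lower without overlap, with a log2 difference of -1.56 (95% confidence interval -3.40 to 0.28, limma adjusted p = 0.302) and of -1.61 without WT replicate 1. The gap between WT replicate 2 and replicate 3 labelled Bach2-cKO was narrow. Nqo1 passed the filter through WT, and the limit given for Il17f applies to it. Cyp1b1 and Ahrr, also targets, were below the filter, with means of 2.39 and 5.50 in WT and 2.10 and 3.20 in the other group. Floors cover counting error only, since reads amplified by PCR are not independent molecules.

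**Figure D5:**
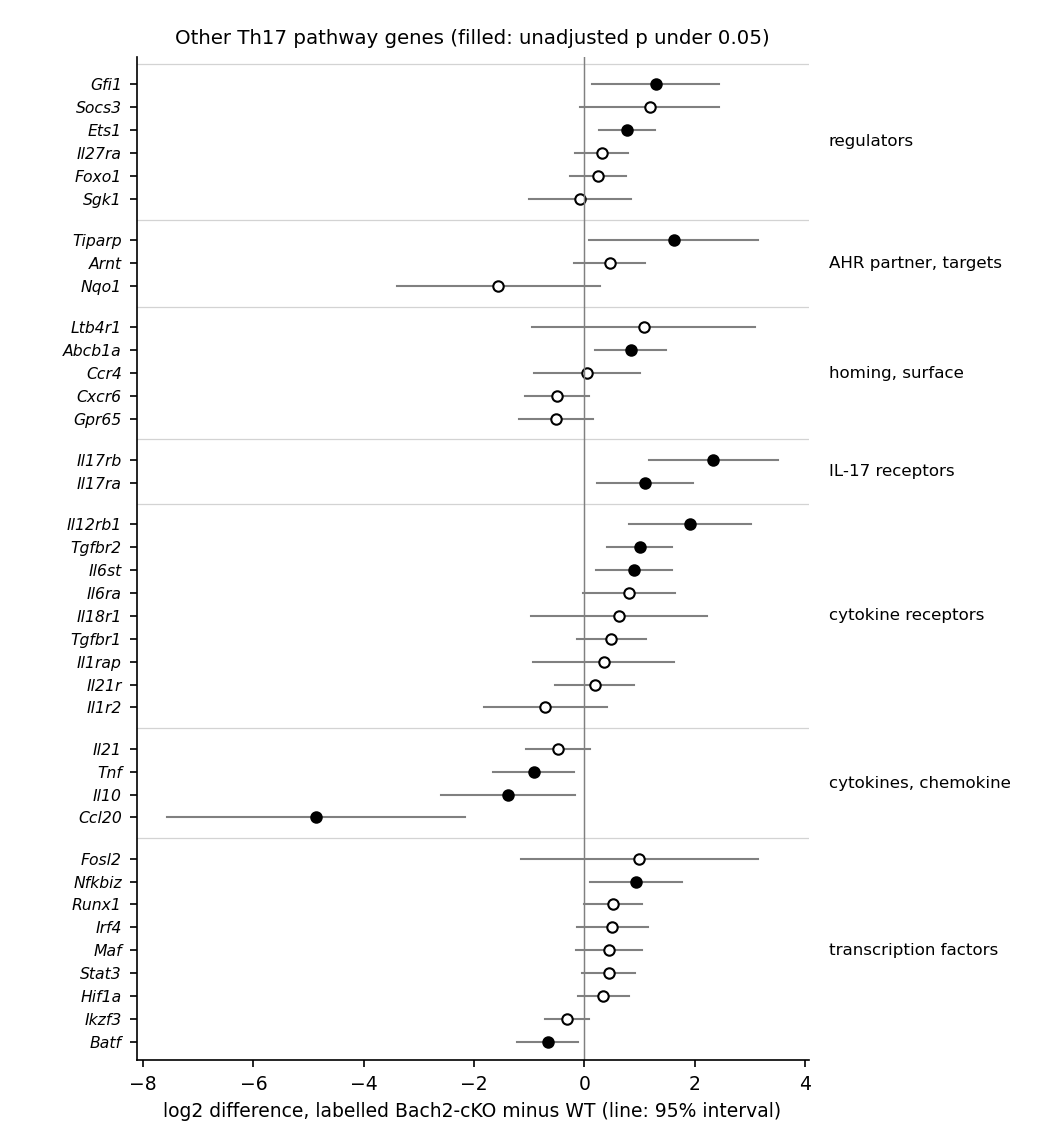
Points are log2 differences (libraries labelled Bach2-cKO minus WT, limma on log2 values) of the 38 other Th17 pathway genes tested, grouped by role, with 95% confidence intervals, and filled points have an unadjusted p under 0.05. Ccl20 is lowest at -4.87 and Il17rb highest at 2.34, and 0 of the 38 passed the adjusted threshold.

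Other cells that make Th17 cytokines were looked for by their markers. The gene that leads each list is the one with the highest normalized read count over the 6 libraries, not corrected for length. Of the gamma delta T cell list, 7 genes were in the table, and their summed normalized read counts were 357, 721 and 173 in WT and 368, 332 and 390 in the libraries labelled Bach2-cKO. Tcrg-c1 led the list, at 130, 264 and 42.6 in WT and 133, 78.4 and 122 in the other group, and Trdc, the constant region of the delta chain, was at 74.8 ± 23.5 (SD, n = 3) and 71.0 ± 19.2 (SD, n = 3), against 17941 for Trac in WT. None of the 5 genes tested had an unadjusted p under 0.05. Blk was at 0 in WT replicate 1, Cd163l1 in WT replicates 1 and 3, and a further gene of the list in WT replicate 3.

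Of the group 3 innate lymphoid cell list, 5 genes summed to 1937, 3113 and 1835 in WT and to 2821, 3604 and 1836 in the libraries labelled Bach2-cKO, led by Il7r, which T cells also express. Ncr1 was at 0 in WT replicate 1 and Tnfrsf11a in WT replicates 1 and 3. Of 4 genes tested 1 was higher at an unadjusted p under 0.05, Kit, at 5.05, 19.1 and 9.36 in WT and at 57.6, 50.9 and 32.7 in the other group. Kit passed the filter through the latter, and the limit given for Il17f applies to it. The 4 genes of innate-like T cells summed to 128, 399 and 363 in WT and to 185, 560 and 164 in the libraries labelled Bach2-cKO, led by Klrb1c, with Zbtb16 at 0 in WT replicates 1 and 3 and Klrk1 in WT replicate 1. The WT mean of Klrb1c was 228 ± 99.6 (SD, n = 3), against 110.4 ± 48.2 (SD, n = 3) for the other group, while Klrb1b, the 1 gene of 3 tested with an unadjusted p under 0.05, was higher without overlap, at 7.87 ± 6.14 and 61.7 ± 37.1. Klrb1b also passed the filter through the group where it is high, and the same limit applies to it. The CD4+ gate of the sort should remove most innate lymphoid and gamma delta T cells, and the part of any that remained in the Th17 genes was not tested.

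Genes of regulatory T cells, some of which also sort as Tfh cells, summed to 7871 ± 1339 (SD, n = 3) in WT, led by Ikzf2, and the group labelled Bach2-cKO had 6562 ± 1076 (SD, n = 3). Of the 6 genes, 2 were lower at an unadjusted p under 0.05 (Foxp3 and Tnfrsf18), where 10.2% of all genes tested were. Foxp3, the defining factor of these cells, was at 222, 315 and 344 in WT and at 47.3, 140.0 and 91.0 in the other group, without overlap. B cells, which the B220- gate should remove, also express Ccr6, and the 5 of their genes used summed to 206, 678 and 468 in WT and to 189, 188 and 251 in the libraries labelled Bach2-cKO, led by Cd79b. Ebf1 was at 0 in WT replicate 2. Ms4a1 was at 35.3, 33.7 and 45.8 in WT and at 2.96, 2.68 and 10.2 in the other group, and was the 1 gene of 4 tested with an unadjusted p under 0.05. It passed the filter through WT, and the limit given for Il17f applies to it. The other genes of the list overlapped between the groups. Cd79a was at 19.2, 208 and 140.4 in WT and at 22.2, 14.7 and 45.0 in the other group, and Cd79b at 112, 369 and 225 and at 102, 145 and 117, both with lower means in the latter. Pax5 was at 37.3, 67.3 and 54.1 and at 50.3, 12.1 and 75.7, and Ebf1 had means of 1.71 and 9.21. The median log2 difference of the genes tested was -1.26. The part of B cells in the Ccr6 difference was not tested.

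Myeloid genes summed to 2307, 9223 and 4551 in WT and to 3050, 7243 and 2143 in the libraries labelled Bach2-cKO, led by Lyz2, with Itgam at 0 in WT replicate 1. Lyz2 was at 1848, 7212 and 3444 in WT and at 1445, 4396 and 1407 in the other group. For scale, Cd4 was at 2500, 2407 and 2792 and at 4131, 3341 and 3349 in the same libraries. The part of myeloid cells or their RNA in the Th17 genes was not tested. CD8 T cell and NK cell genes summed to 895 ± 224 (SD, n = 3) and 699 ± 203 (SD, n = 3), led by Cd8b1, and genes of naive and resting T cells to 10846 ± 1388 (SD, n = 3) and 12544 ± 1025 (SD, n = 3), led by Tcf7. Neither sum separated the groups, while single genes of these lists had an unadjusted p under 0.05 in opposite directions, Eomes lower and Gzmb higher among 6 CD8 and NK cell genes, and Ccr7 lower and Tcf7 higher among 6 naive T cell genes. None of the 5 myeloid genes tested did.

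The genes most like the Th17 genes were sought with a score, the mean over the 7 genes above the filter of the log2 values standardised per gene. Over the 6 libraries the score was -0.23, 0.63 and 0.18 in WT and 0.34, -0.30 and -0.62 in the libraries labelled Bach2-cKO, so that the groups overlapped and WT replicate 2 was the highest. Of 8956 genes with a mean of at least 50, the 5 with the highest Pearson's r with it over these 6 libraries were Tmem176b (0.975), Abcg2 (0.947), Adam19 (0.945), Sp2 (0.940) and Rnpc3 (0.937), given as a description of libraries that also share depth and composition. The 9 genes themselves, of which 7 make up the score, had an r between 0.0997 (Il17re) and 0.720 (Il23r), with Il17f at 0.411.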

How the data were processed

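RNA-seq values of 6 libraries of sorted Tfh cells, 3 WT and 3 labelled Bach2-cKO, were used. The authors deposited these values as normalized read counts, a signal per gene. Their methods name Tophat2 for alignment, HTSeq for counting and DESeq2, while the submitters' processing notes name STAR 2.5.2b, DESeq2 1.20.0, R 3.5.1 and the genome GRCm38 (mm10), and which aligner made this table is not settled. Amplification used the SMARTer Ultra Low kit, whose strand setting in the counting is not given in the sources used here.

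Differences were tested with limma 3.58.1 (R 4.3.3) on log2(value + 1), with a trend in the prior variance, in 11296 genes that reached 10 in 3 or more libraries, and p-values were adjusted over all of them by Benjamini-Hochberg. A call required over 2-fold change and an adjusted p under 0.01. For edgeR 4.0.16 and DESeq2 1.42.0, whole reads were recovered for 5 libraries by dividing by the smallest value above 0, within 0.01 of a step for 100% of the values. WT replicate 1 also reached 100% but was left out, because its step of 1.01 was too near 1 for the check used. Steps of 1.04 in WT replicate 3 and 1.02 in replicate 3 labelled Bach2-cKO were accepted. These count tests therefore held 2 WT libraries. The procedures were tested on simulated data. GENCODE M21 gave positions and exon lengths for 14329 of 14744 symbols. Alternatives covered pseudocounts, filters, normalizations, variance models, library weights, a length and GC trend, count tests, thresholds, single libraries left out and the replicate number as a block.

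The members and the lists were chosen with earlier results of these data known. Genes were named by a rule: the 9 members, Bach2, Cd4, Cd3e, Trac, Cxcr5, Pdcd1 and Bcl6, pathway genes with an unadjusted p under 0.05 and a change of over 2-fold, the most abundant gene of each role and marker list, markers at 0, and the 5 genes most like the members. Other names fill counts of 5 or fewer, give neighbors by position or mark a paralog or marker chosen after its values were seen. Some genes of the lists are not reported here and do not enter the counts and sums of the lists.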

Additional observations from a re-analysis of the deposited data

How the results depend on the processing

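The counts of 0 genes lower and 0 higher at an adjusted p under 0.01 held with other pseudocounts, filters, normalizations and without a variance trend, in edgeR and with each library left out (0 to 0). They were 57 lower and 33 higher with DESeq2 on 5 libraries and 567 and 561 with library weights, which gave WT replicate 1 a weight of 0.206 and replicate 2 labelled Bach2-cKO 5.54. At an adjusted p under 0.05 with any fold 0 genes passed, but, in counts added after seeing the data, 511 did without replicate 3 labelled Bach2-cKO, 2 without a variance trend, 368 in DESeq2 and 4168 with library weights. The 4 pathway genes lower and 10 higher at an unadjusted p under 0.05 became 9 and 20 with library weights, and 5 were higher without a variance trend and 6 once trends in length and GC content were removed, a setting that moved the median of all genes from 0.08 to -0.04. Over all genes, 1157 lower and 1144 higher became 2580 and 2748 with library weights, 884 and 1022 without a variance trend, 1169 and 564 once those trends were removed and 1404 and 933 with median rescaling. With single libraries left out the pathway counts ran from 1 to 6 and from 5 to 15, and those over all genes from 595 to 1584 and from 463 to 1477.

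The median log2 difference of the members, -0.12, was -0.66 with quantile normalization, -1.47 with library weights and, leaving out single libraries, from -1.82 to -0.0641. It was -1.63 in edgeR and -1.64 in DESeq2, which also lack WT replicate 1, whose removal alone gave -1.82. Il17a (0.05) was at -0.20 with a pseudocount of 5, -0.29 with quantile normalization and -1.79 with library weights. Il22 (-0.12) was at 0.15 with a pseudocount of 0.5 and 0.29 once length and GC trends were removed. In the other direction, Il22 was at -0.55 with a pseudocount of 5 and -0.66 with quantile normalization. It was at -2.24 with library weights, -2.57 in edgeR and -2.62 in DESeq2. With library weights Il17re was at 0.47 and Ahr at 0.21. With single libraries left out, Il17a ran from -1.15 to 1.93, Il22 from -1.82 to 1.45 and Ahr from -0.33 to 0.30. Il17f, Ccr6, Il23r, Il1r1 and Rora kept their signs in each setting run but not their size, with Il1r1 at 0.05 (from 0.64), Rora at 0.20 (from 0.73) and Il23r at -1.47 (from -2.78) with library weights, and Il23r between -3.84 and -1.19 as each library was left out. The cause was not tested. For Il17f and Ccr6, whose groups do not overlap, leaving out a library could not change the sign, so nothing is read from its staying the same there.

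The labels give a replicate number but do not say whether libraries with the same number are paired. Deviations of such libraries from their group means had correlations of -0.07, 0.12 and -0.04. With so few libraries these values cannot decide whether they are paired. With the replicate block, 0 genes were called in either direction, and 4 pathway genes were lower and 11 higher at an unadjusted p under 0.05. Depth limits the low members, which rest on under 10 reads in many libraries.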
